A study of Mus musculus with 5 samples.

Results

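Srebf1, Mlxipl, Thrsp and Pnpla3 are 4 genes of the liver programme that turns dietary sugar into fat: a pair of transcriptional regulators of lipogenesis and a pair of genes that respond sensitively to them. They were taken as every probe set of the array whose only annotated gene symbol is one of these names, a rule that applies no threshold to the measured values, which gave 5 of 20380 such probe sets and 4 of 12393 genes. Srebf1 is read by probe set 1426690_a_at, Mlxipl by 1419185_a_at, Pnpla3 by 1420655_at, and Thrsp by both 1424737_at and 1422973_a_at. On the array used, a name ending in a_at marks a probe set that reads alternative transcripts of a gene together, so the 1a and 1c forms of SREBP-1 and the forms of ChREBP cannot be told apart here.

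RNA came from livers of C57B/L mice, 8 weeks old at entry and acclimatised for 2 weeks, and each of 5 groups was measured as a pool of livers on 1 array. Standard chow was given for 1 or 10 weeks, an atherogenic diet (a feed used to provoke artery disease in rodents) for 1 or 10 weeks, and in the last group the diet for 10 weeks with atorvastatin, a statin that blocks HMG-CoA reductase in cholesterol synthesis, during the final 3 weeks. The number of livers in a pool, the sex of the mice, the composition of the diet, the statin dose, and the hour and feeding state at collection were not given in the sources used here. For the sample on 1 week of diet, the source name reads chow whereas its title, description and protocols name the diet, and it was grouped by its title. With no replicate in any group, every value describes a pool, and no test or p-value was possible. In whole liver, fewer cells of a type and less RNA per cell cannot be told apart.

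Srebf1 encodes SREBP-1, a membrane-bound precursor that is carried to the Golgi by Scap, cut by the proteases Mbtps1 and Mbtps2, and released as a nuclear factor that switches on fatty acid synthesis. Insulin and the oxysterol receptor LXR raise its 1c form in liver, and Insig proteins hold the precursor back in the endoplasmic reticulum. Mlxipl encodes ChREBP, which pairs with Mlx and drives glycolytic and lipogenic genes when glucose metabolites accumulate. Thrsp, also called Spot 14, is a small acidic protein named for its response to thyroid hormone and found in lipogenic tissues. Pnpla3, or adiponutrin, is a lipid droplet protein of the patatin-like phospholipase family whose transcript falls on fasting and returns on carbohydrate feeding.

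The stretch before the transcription start of each gene is shown because the genes were all highest on the same array and because both SREBP-1 and ChREBP act through short promoter elements, with the factor NF-Y, which binds the CCAAT box, as a common partner of SREBPs. RefSeq windows (assembly GRCm38.p6) run from 250 bases before to 50 after a start, and the 250 bases before it are printed, 5′ to 3′ on the gene's strand. Where a gene has several windows (3 for Srebf1, 2 for Mlxipl), the one with the most motif matches is given. Capitals mark CCAAT, read as ATTGG where the match lies on the opposite strand, the E-box CACGTG, and TCACCC, a short core of the sterol response element chosen after the windows had been seen. GC boxes are left in lower case.
Srebf1 (chr11:60210472-60210721, minus strand): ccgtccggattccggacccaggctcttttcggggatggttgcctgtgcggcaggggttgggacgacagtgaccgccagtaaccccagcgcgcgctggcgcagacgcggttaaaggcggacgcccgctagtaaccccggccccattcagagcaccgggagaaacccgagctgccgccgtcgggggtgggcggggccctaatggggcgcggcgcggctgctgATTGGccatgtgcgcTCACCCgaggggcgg
Mlxipl (chr5:135089640-135089889, plus strand): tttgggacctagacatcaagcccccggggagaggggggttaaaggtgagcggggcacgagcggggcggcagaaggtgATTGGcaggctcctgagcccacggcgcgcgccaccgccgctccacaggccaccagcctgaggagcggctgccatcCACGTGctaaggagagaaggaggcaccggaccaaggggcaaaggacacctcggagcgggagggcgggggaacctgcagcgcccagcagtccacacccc
Thrsp (chr7:97417551-97417800, minus strand): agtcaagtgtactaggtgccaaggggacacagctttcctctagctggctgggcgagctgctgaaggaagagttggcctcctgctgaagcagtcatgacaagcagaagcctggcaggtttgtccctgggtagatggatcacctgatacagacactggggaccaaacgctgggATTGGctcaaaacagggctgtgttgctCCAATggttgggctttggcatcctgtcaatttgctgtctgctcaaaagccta
Pnpla3 (chr15:84167566-84167815, plus strand): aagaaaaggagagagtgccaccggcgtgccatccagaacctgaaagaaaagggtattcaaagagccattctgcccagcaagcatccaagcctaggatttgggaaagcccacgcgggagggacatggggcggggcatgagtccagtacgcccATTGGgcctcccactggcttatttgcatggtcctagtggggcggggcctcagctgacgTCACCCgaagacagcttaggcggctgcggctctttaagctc

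CCAAT occurred in 5 of the 7 windows of the 4 genes, and in at least 1 window of every gene, against 37.4% of all 32851 mouse promoter windows of the same length. In Srebf1 it lay at bases -30 to -26 from the start with TCACCC at -15 to -10, and in Pnpla3 at -99 to -95 with TCACCC at -41 to -36. TCACCC was present in 16.2% of all windows. The Thrsp window held CCAAT at -79 to -75 and again at -52 to -48, and no TCACCC. The E-box of Mlxipl at -98 to -93 was the only CACGTG in the 7 windows, against 7.15% of all windows. The longer sterol response consensus TCACNCCAC, found in 1.24% of all windows, occurred in the other Mlxipl window at -136 to -128. GC boxes (GGGCGG) were present in 4 of the 7 windows, against 35.7% of all, and the TATA box (TATAAA) in 0, against 13.6% of all. A carbohydrate response element, written strictly as CACGTG, 5 free bases and CACGTG, was found in 0 of the 7 windows. It was also found in 0 of all 32851 windows, so this pattern cannot show whether the 4 genes lack such an element. A DR4 pair, the LXR and thyroid hormone receptor element written as AGGTCA, 4 free bases and AGGTCA, occurred in 0 of the 7 and in 0.0152% of all windows. All motifs were searched on both strands. A GC box does not overlap the other matches marked in capitals, and these matches describe letters in a window, not binding.

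**Figure D1:**
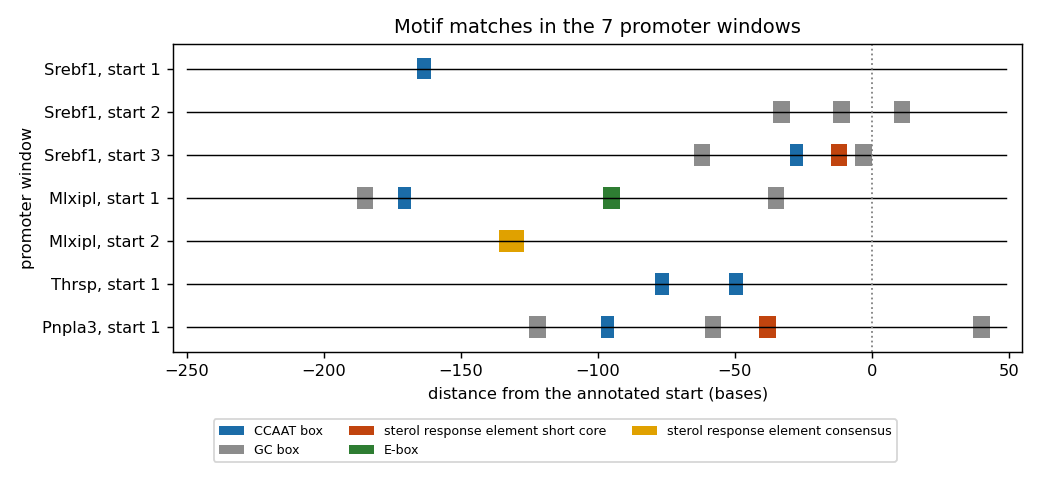
Motif matches in the 7 RefSeq promoter windows of the 4 genes, plotted by distance in bases from the annotated start (dotted line), 1 line per window and 1 colour per motif. CCAAT matches appear in 5 of the 7 windows, the E-box in 1 and the TATA box in 0.

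The arrays read as liver. All 11 named hepatocyte markers were above the floor on every array, where the floor is a signal of 138.9, the 40th percentile of all signals, to which lower values were raised. The adipocyte genes Adipoq, Lep and Cidea were at the floor on all 5 arrays. The sum of the 7 named adipocyte markers was 8123.4 on 1-week chow, 22861.7 on 10-week chow, 8466.8 on the 1-week diet, 24188.6 on the 10-week diet and 20973.8 with atorvastatin, nearly all of it from Car3, which hepatocytes also express. Relative to 1-week chow, the spike-in controls read 5.76 times as high on 10-week chow and 1.05 to 1.87 times as high on the diet arrays, and the 18S RNA control was at 13944.1 with atorvastatin against 437 to 2185 elsewhere. The 3′ to 5′ ratio of Gapdh ranged from 0.783 to 1.01. The same ratio for beta-actin was 1.73 on 10-week chow and 1.17 on the 10-week diet, the highest and the lowest of the 5 arrays. The part of these differences in the results was not tested.

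Srebf1 had signals of 625.4 on 1-week chow, 1737.3 on 10-week chow, 763.8 on the 1-week diet, 3729.4 on the 10-week diet and 1923.9 on the 10-week diet with atorvastatin. Both 1-week arrays were low, 10-week chow and atorvastatin lay close together in the middle, and the 10-week diet stood highest. The 10-week diet signal was 5.96-fold that of 1-week chow, the lowest array. The chow arrays themselves differed by 2.78-fold, a log2 ratio of 1.47, which ranks 48 from the top of 9087 genes. Among genes in the highest quartile of mean signal, to which Srebf1, Mlxipl and Thrsp belong, 95% differed by less than 1.83-fold between the chow arrays. Age and time on chow differ between those arrays as well, so this spread is not replicate error, but it is the only yardstick of its kind here. By it, the neighbouring steps of Srebf1 from the 1-week diet to 10-week chow (2.27-fold) and from atorvastatin to the 10-week diet (1.94-fold) lay outside the spread. The steps from 1-week chow to the 1-week diet (1.22-fold) and from 10-week chow to atorvastatin (1.11-fold) lay inside it. The step from atorvastatin to the 10-week diet was still smaller than the 2.78-fold difference of Srebf1 itself between the chow arrays.

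Mlxipl had signals of 1430.8 on 1-week chow, 1281.1 on 10-week chow, 1694.9 on the 1-week diet, 3047.2 on the 10-week diet and 1860.4 with atorvastatin. It was the steadiest of the 4 genes. Its chow arrays were the lowest and the 10-week diet the highest. From lowest to highest the range was 2.38-fold, and no neighbouring step exceeded the 1.83-fold spread, the largest being 1.64-fold between atorvastatin and the 10-week diet.

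Thrsp is read by a pair of probe sets, whose brightness also depends on their probes, so levels are compared within a probe set only. Probe set 1424737_at read 1474.7 on 1-week chow, 2539.6 on 10-week chow, 1273.6 on the 1-week diet, 11943.6 on the 10-week diet and 3923.6 with atorvastatin. Probe set 1422973_a_at read 474.7, 733.0, 268.5, 4145.8 and 1026.3 in the same order. Both probe sets put the arrays in the same order, with the 1-week diet lowest, then 1-week chow, 10-week chow, atorvastatin and, far above the rest, the 10-week diet. The range was 9.38-fold for the former and 15.4-fold for the latter. The step from atorvastatin to the 10-week diet was 3.04-fold and 4.04-fold, past the chow spread, while the 3 lower steps of 1424737_at, at 1.16-fold, 1.72-fold and 1.54-fold, lay within it.

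Pnpla3 is read close to the lower limit of the measurement. Its signals were 174.0 on 1-week chow, 157.7 on 10-week chow, 54.2 on the 1-week diet, 509.3 on the 10-week diet and 160.9 with atorvastatin. Apart from the 10-week diet, all arrays lay close to the floor, and the 1-week diet lay below it and holds only a bound. In the lowest quartile of mean signal, where Pnpla3 lies, 95% of genes differed by less than 1.88-fold between the chow arrays. The quartile above gave 2.13-fold. This spread was taken on signals raised to the floor, which can narrow it most in the lowest quartile, so it is a weak yardstick for Pnpla3. The step from 1-week chow to the 10-week diet was 2.93-fold, and those among 10-week chow, atorvastatin and 1-week chow were 1.02-fold and 1.08-fold.

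**Figure D2:**
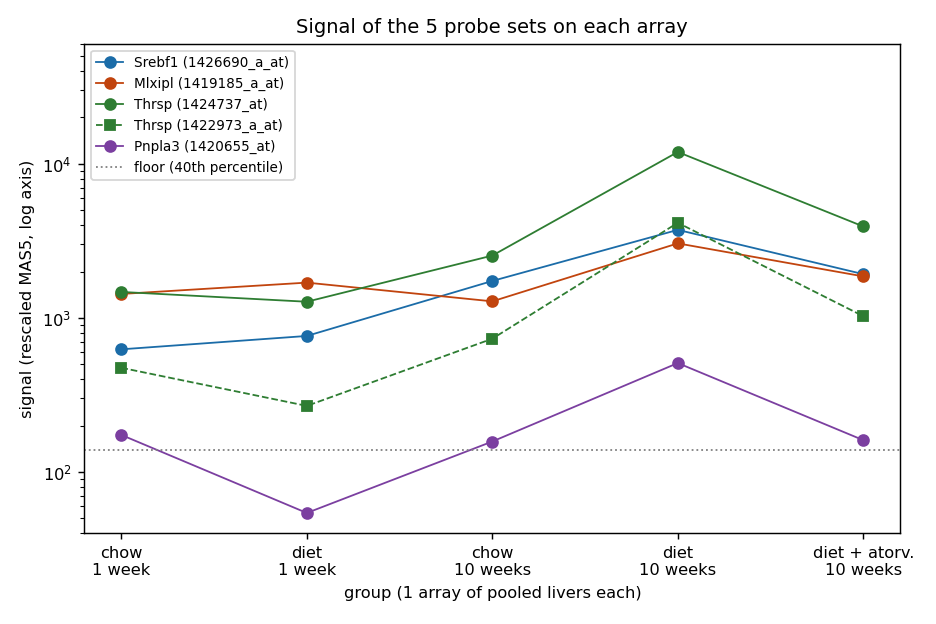
MAS5 signal (log axis) of the 5 probe sets on each of the 5 arrays, with 1 point per probe set and array, lines joining the points of a probe set only to guide the eye, the floor of 138.9 dotted, and atorvastatin shortened to atorv. Every probe set is highest on the 10-week diet array, and Pnpla3 on the 1-week diet (54.2) lies below the floor.

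The 4 genes were therefore all at their highest on the 10-week diet array, as were 27.3% of the 9818 genes measured on at least 1 array. At 10 weeks the diet array was at least 2-fold above chow for 4 of the 4 genes, against 3.59% of all genes higher by that much and 3.07% lower. Thrsp was 4.70-fold higher (log2 2.23) and ranked 9 of 9232 genes, with 5.66-fold by its other probe set. Pnpla3 was 3.23-fold higher (log2 1.69, rank 38). Mlxipl was 2.38-fold higher (log2 1.25, rank 133) and Srebf1 2.15-fold higher (log2 1.10, rank 242). The median log2 ratio of the 4 was 1.47, beside 0.05 for all genes. The Srebf1 ratio was smaller than the 2.78-fold difference of Srebf1 between the chow arrays. Against 1-week chow all 4 genes were again past 2-fold, with log2 ratios of 2.58 for Srebf1, 1.09 for Mlxipl, 3.02 for Thrsp and 1.55 for Pnpla3. The share of all genes past 2-fold in that comparison was 3.6% upward and 2.75% downward. The summed hepatocyte markers were 330544 on the diet and 454040 on chow at 10 weeks, and 286782 on 1-week chow. The summed Kupffer cell and macrophage markers were 21133.5, 12731.5 and 19115.8 in the same order of arrays. The direction for hepatocyte markers, and most of the Kupffer cell difference, thus depend on the chow array taken as reference. The 10 endothelial markers summed to 7693.4, 4917.9 and 6710.9 in that order, with 8 higher and 2 lower on the diet than on 10-week chow. Cdh5, the endothelial cadherin, had a log2 ratio of 2.02 against 10-week chow. Its other probe set gave -0.29, and the mean of its probe sets 0.87. The part of these markers in the result was not tested.

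After 1 week, 0 of the 4 genes differed by 2-fold between diet and chow, where 1.06% of all genes were higher and 1.24% lower. Srebf1 (log2 0.29) and Mlxipl (0.24) were slightly higher on the diet, and Thrsp (-0.21, and -0.82 by its other probe set) slightly lower. Pnpla3 was at least 1.25-fold lower on the diet, a bound set by the floor, and the signals taken without a floor gave 3.21-fold lower. The median of the 4 was 0.02, beside -0.03 for all genes. The diet arrays themselves differed between the times for 3 of the 4 genes, in a comparison where 4.78% of all genes passed 2-fold upward and 3.68% downward. Thrsp was 9.38-fold higher at 10 weeks than at 1 week on the diet, rank 2 of 9086 genes. Srebf1 was 4.88-fold higher (rank 15) and Pnpla3 at least 3.67-fold higher. Mlxipl, at 1.80-fold, stayed within 2-fold. On chow over the same interval, Srebf1 alone of the 4 passed 2-fold, where 2.44% of all genes were higher and 1.95% lower. Thrsp was 1.72-fold higher, Mlxipl 1.12-fold lower and Pnpla3 1.10-fold lower at 10 weeks on chow.

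With atorvastatin on the diet, all 4 genes lay below the diet alone, and 2 of them, Thrsp and Pnpla3, by at least 2-fold. Of all genes 2.12% were at least 2-fold lower and 2.15% higher. Pnpla3 was 3.17-fold lower (log2 -1.66) and ranked 27 from the bottom of 9293 genes. Thrsp was 3.04-fold lower (log2 -1.61, rank 30 from the bottom), or 4.04-fold by its other probe set. Srebf1, at 1.94-fold lower (log2 -0.95), lay just inside 2-fold, and Mlxipl was 1.64-fold lower (log2 -0.71). The median of the 4 was -1.28, beside -0.02 for all genes. This comparison and that of diet with chow at 10 weeks share the 10-week diet array, so a high value on that array enters both. The Kupffer cell and macrophage markers summed to 31260.8 with atorvastatin, against 21133.5 on the diet. The endothelial markers summed to 6301.7 with atorvastatin, against 7693.4 on the diet. Of the 10, 4 were higher and 6 lower with atorvastatin, with Cdh5 at -2.40, or -0.48 by its other probe set. The part of these differences was not tested.

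Measured against 10-week chow directly, the atorvastatin array differed by less than 2-fold for all 4 genes, where 3.05% of all genes were higher and 2.46% lower. The log2 ratios were 0.15 for Srebf1, 0.54 for Mlxipl, 0.63 for Thrsp and 0.03 for Pnpla3, with a median of 0.34 beside 0.03 for all genes. Against 1-week chow, Srebf1 (log2 1.62) and Thrsp (1.41) were past 2-fold, whereas Mlxipl (0.38) and Pnpla3 (-0.11) were not. There, 2.93% of all genes were past 2-fold upward and 1.87% downward. The chow array taken as reference thus decides whether Srebf1 and Thrsp with atorvastatin stand at or above the chow level.

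**Figure D3:**
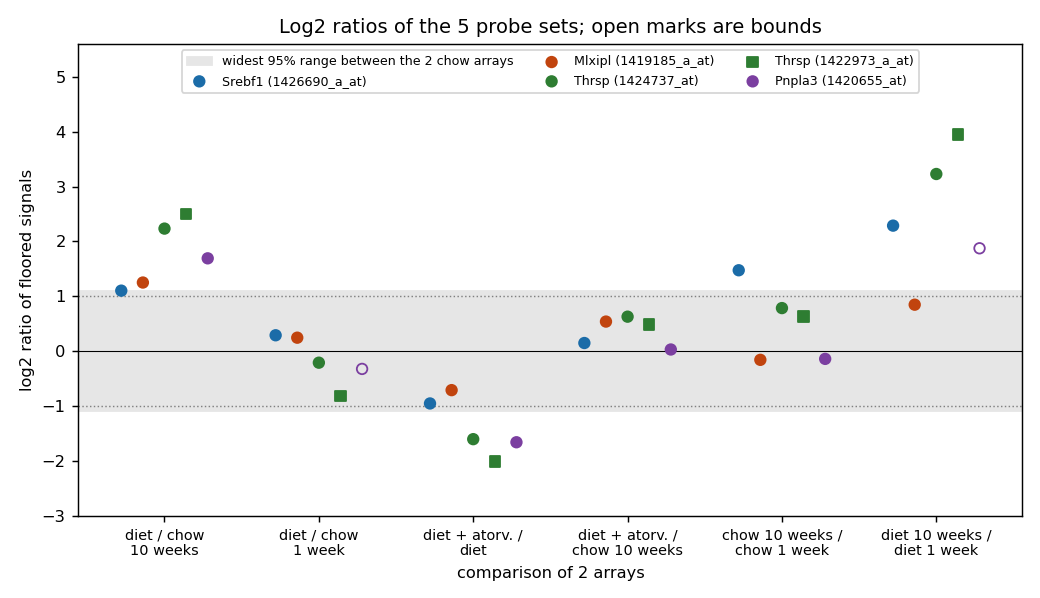
Log2 ratios of the 5 probe sets in each comparison of 2 arrays, with 1 point per probe set, open marks for bounds, dotted lines at the 2-fold rule and a grey band for the widest 95% range of a signal quartile between the chow arrays (2.13-fold). At 10 weeks on the diet all probe sets lie above 1, at 1 week all lie within 1 of zero, and with atorvastatin against the diet all lie below zero.

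**Figure D4:**
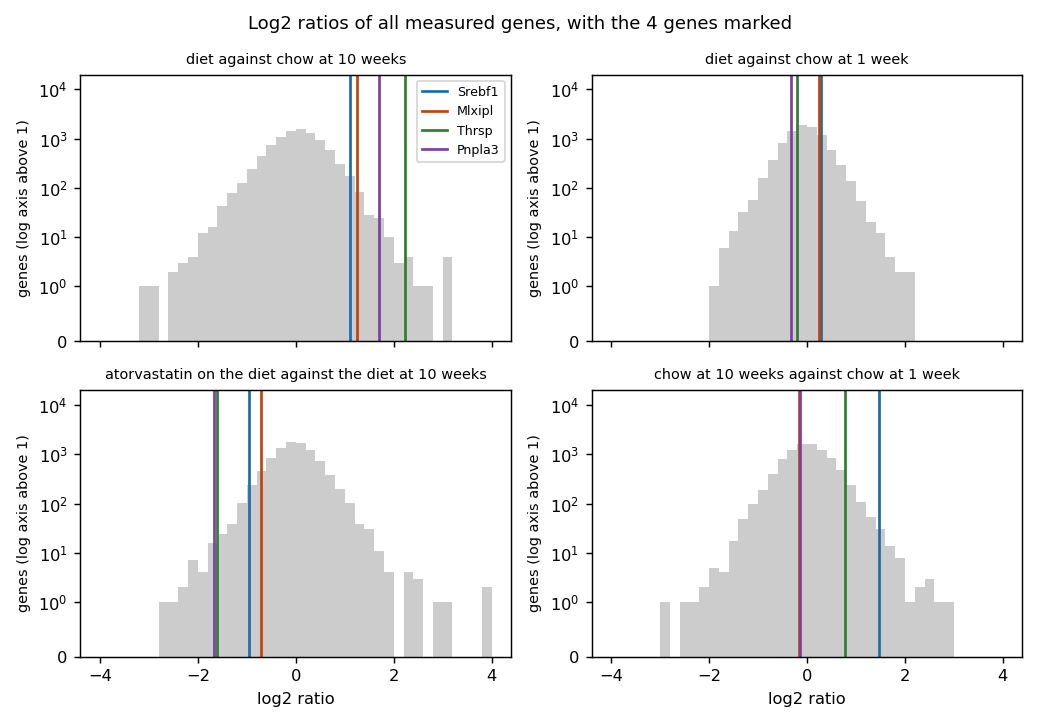
Histograms of the log2 ratios of all measured genes in 4 of the comparisons, with the number of genes on an axis that is logarithmic above 1 and the 4 genes marked by vertical lines. Thrsp ranks 9 of 9232 genes for diet against chow at 10 weeks, and Pnpla3 27 from the bottom of 9293 for atorvastatin against the diet.

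Among the proteins that process SREBPs, and the paralog Srebf2, which governs cholesterol synthesis, 0 of 5 measured genes differed by 2-fold between diet and chow at 10 weeks, between diet and chow at 1 week, or between atorvastatin and the diet. Srebf2 had signals of 749.8 on 1-week chow, 271.0 on 10-week chow, 628.4 on the 1-week diet, 517.8 on the 10-week diet and 573.1 with atorvastatin. Its 10-week chow array was the lowest, where Srebf1 was not low. Its log2 ratio between the chow arrays was -1.47, and -0.55 by its other probe set, where that of Srebf1 was 1.47. Insig2, which retains the precursor, was lower on both 10-week diet arrays, with log2 ratios to 10-week chow of -0.98 without and -0.91 with atorvastatin. Its other probe sets gave -1.07 and -1.69 without atorvastatin. Scap, the escort, was at 0.42 on the diet at 10 weeks. Mbtps1, a protease, was at 0.05, with 0.96 by another probe set that lay below the floor on 10-week chow. Fbxw7, a ubiquitin ligase adaptor that marks nuclear SREBP for decay, was at 0.17, with -0.45 by its other probe set, and at 0.82 and 0.74 by these probe sets for atorvastatin against the diet.

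Of 11 genes of the Mlx family and glucose-responsive ChREBP targets, Pklr, the liver pyruvate kinase, was at least 2-fold higher on the diet at 10 weeks and G6pc, the glucose-6-phosphatase of glucose output, at least 2-fold lower. The list median was -0.07. Pklr had signals of 870.6 on 1-week chow, 914.5 on 10-week chow, 499.6 on the 1-week diet, 2203 on the 10-week diet and 1011 with atorvastatin. Like the 4 genes, it was highest on the 10-week diet, with log2 ratios of 1.27 there and -1.12 for atorvastatin against the diet. For the former its other probe sets gave 1.64 and 3.34, the latter a bound because its 10-week chow signal lay below the floor. G6pc had a log2 ratio of -1.43 at 10 weeks against 10-week chow and -0.76 against 1-week chow. Mlx, the obligate partner of ChREBP, was at -0.80 at 10 weeks and 0.50 with atorvastatin against the diet, while its other probe set gave the opposite signs, 0.40 and -0.26, so no direction is given for Mlx. Its paralog partner Mlxip was at 0.44 and 0.18. Khk, the fructose kinase, was at 0.68 and Txnip, a glucose-induced arrestin, at 0.55 at 10 weeks, with -0.10 for Txnip by its other probe set.

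Of 22 measured nuclear receptors and partner factors that act upstream of lipogenic genes, Nr0b2 was at least 2-fold higher on the diet at 10 weeks and Sp1 at least 2-fold lower, with a median of -0.30. These calls use the probe set that represents each gene. Nfyb, an NF-Y subunit, gave 1.01 at 10 weeks and -0.82 for atorvastatin against the diet by its other probe set. Nfya, a further subunit, gave 1.21 and -1.10 by another probe set, and -0.10 and 0.67 by a further one. For Nfya all of these but the -1.10 are bounds. Nr0b2, a corepressor induced by bile acids, had a log2 ratio of 1.10 against 10-week chow and 0.50 against 1-week chow. Sp1, a GC box factor, was at -1.07 against 10-week chow and -0.51 against 1-week chow, so both calls rest on the 10-week chow array. Nr1h3, the liver LXR, was within a narrow range, with signals from 696.4 to 877.4. Thra, a thyroid hormone receptor, was at 1.06 for atorvastatin against the diet, and Thrb, the main receptor of liver, at 0.42. At 1 week 0 of the 22 passed 2-fold by the probe sets that represent them. Other probe sets of the nuclear receptor Hnf4a gave -1.31, 0.03 and 0.44 there. Of 12 genes of insulin signalling and glucose entry, Gckr, the glucokinase regulator, was at 1.03 at 10 weeks and Trib3, a stress-induced pseudokinase that binds Akt, at 1.49 at 1 week, while 0 of 12 passed 2-fold for atorvastatin against the diet.

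Enzymes of fatty acid and triglyceride synthesis that SREBP-1 and ChREBP drive were also higher on the 10-week diet array in part. The median log2 ratio of 18 measured was 0.65 for diet against chow at 10 weeks. By the probe sets that represent them, 6 were at least 2-fold higher on the diet and 0 lower. They were Acacb (log2 2.07), the mitochondrial acetyl-CoA carboxylase, Elovl6 (1.77), which elongates palmitate, Fasn (1.60), which makes it, Mid1ip1 (1.53), the paralog of Thrsp that assembles acetyl-CoA carboxylase, Acly (1.43, and 1.88 and 0.63 by its other probe sets above the floor), the ATP citrate lyase, and Me1 (1.12), the malic enzyme. The ratio of Acacb was 0.81 against 1-week chow. Scd1, the stearoyl-CoA desaturase, gave 0.12 by the probe set that represents it, whose signal was 32870 on 10-week chow and 35630 on the 10-week diet, and 2.38 by its other probe set, which read 3622 and 18900 on these arrays. Other probe sets of Fads2 (1.28), Dgat2 (1.27) and Gpam (1.02) also passed 2-fold at 10 weeks. Those of Pgd gave 1.66, 0.56 and -0.23. At 1 week 1 of 17 was higher, the lipid droplet gene Cidec (1.27), and 1 lower, Me1 (-1.04, or -0.10 by its other probe set), with a median of 0.01. With atorvastatin 7 of 17 were at least 2-fold below the diet and 0 above, with a median of -0.78. Acacb lay below the floor with atorvastatin, a bound of -2.61, followed by Fasn (-1.75), Elovl6 (-1.74) and Acly (-1.69, or -0.93 as the mean of its probe sets). Against 10-week chow 0 of 18 passed 2-fold with atorvastatin by the probe sets that represent them. Other probe sets of Dgat2 (1.29) and Gpam (1.23) did, and these hardly differed between atorvastatin and the diet (0.02 and 0.21). Against 1-week chow Acacb was at least 2-fold lower with atorvastatin, a bound of -1.80.

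Fasn had signals of 750.5 on 1-week chow, 1244 on 10-week chow, 678.6 on the 1-week diet, 3783 on the 10-week diet and 1122 with atorvastatin. The order of its arrays differed from that of Srebf1, since the atorvastatin array lay below 10-week chow and the 1-week diet below 1-week chow. Mid1ip1 read 382.0, 509.3, 443.0, 1467 and 558.3 in that order of arrays, again with the 10-week diet standing alone at the top. Of 10 measured relatives and partners of the 4 genes, Mid1ip1 was higher and G0s2, an inhibitor of the lipase Pnpla2, lower (-1.15) at 10 weeks. The lipase Pnpla2 itself was at -0.32, its coactivator Abhd5 at 0.78, or 1.62 by its other probe set, and the phospholipase relatives Pnpla6 at 0.01, Pnpla7 at 0.79 and Pnpla8 at 0.25. None of these other Pnpla genes passed 2-fold at 10 weeks, in contrast to the 1.69 of Pnpla3, a difference that was not tested.

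Of 8 thyroid hormone responsive genes of liver, Me1 alone passed 2-fold at 10 weeks by the probe sets that represent them. The list median was -0.31. Other probe sets of Klf9 ranged from -1.05 to 0.20. Cyp7a1, which starts the classical route to bile acids, was at -1.05 on the 1-week diet, or -2.18 by its other probe set. Of 13 genes of the fasting and glucagon response, 0 were at least 2-fold higher and 4 lower on the diet at 10 weeks, with a median of -0.81. They were Fgf21, a fasting hormone that was below the floor on the diet (a bound of -2.10), Acot1, an acyl-CoA thioesterase (-2.04), Pdk4, the kinase that shuts pyruvate dehydrogenase (-1.92), and G6pc. With atorvastatin against the diet only Acot1 passed 2-fold, at 1.24. Against 10-week chow, 6 of the 13 were at least 2-fold lower with atorvastatin and 0 higher, with a median of -0.80. Against 1-week chow, 4 were lower and 0 higher, with a median of -0.42. For diet against chow at 1 week, Pdk4 was at -1.01, while other probe sets of Cpt1a gave 1.64 and 2.13. Of 13 measured clock genes, 4 were higher and 2 lower at 10 weeks, and Nr1d1, the repressor Rev-erb alpha, had log2 ratios of 2.29 at 10 weeks and 1.70 at 1 week. Arntl, the core activator, was at -1.92 and -1.29. Transcripts of lipogenic genes follow the day and the last meal in rodent liver, and the part of feeding state or clock hour in these results was not tested.

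**Figure D5:**
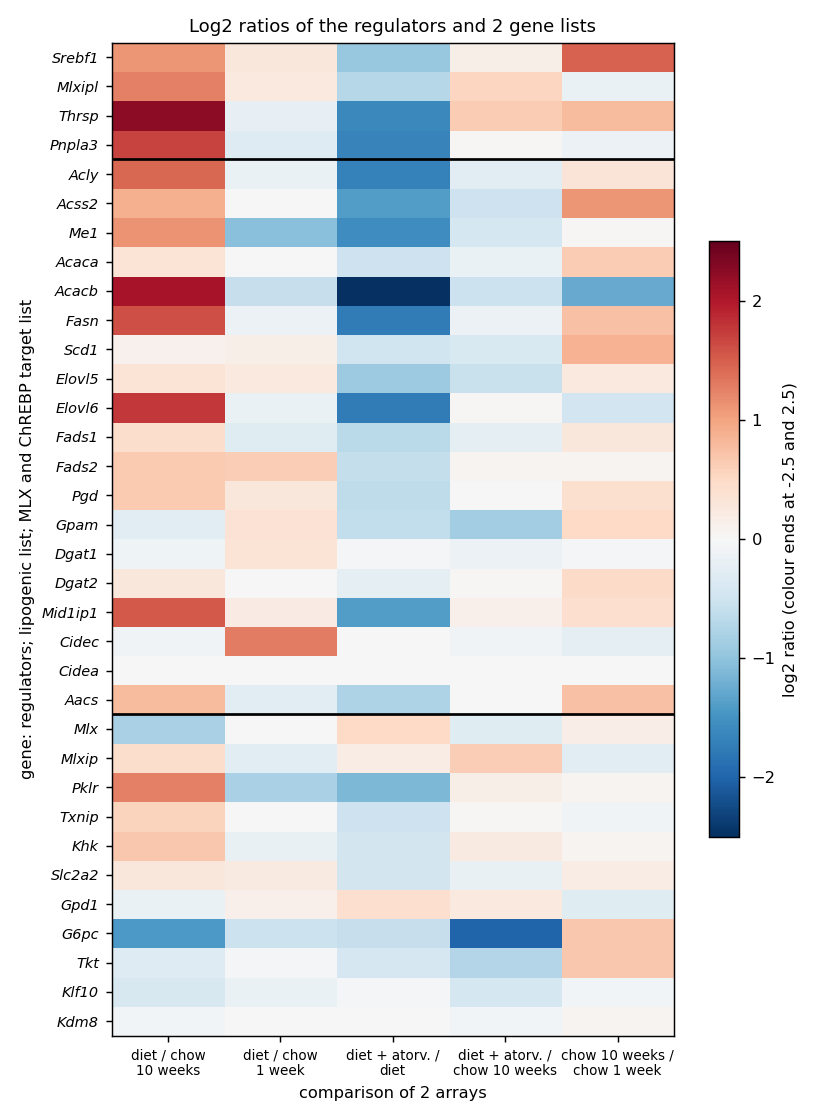
Log2 ratios of the 4 genes, the lipogenic enzymes, and the Mlx family with ChREBP targets (from top to bottom, between black lines) in 5 comparisons of arrays, in colour from blue for lower to red for higher, with genes at the floor on both arrays drawn at 0. Lipogenic enzymes are higher on the diet at 10 weeks for Acacb (2.07), Elovl6 (1.77) and Fasn (1.60) and lower with atorvastatin against the diet for the same genes.

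Across the 5 arrays, the genes most like each of the 4 were ranked by the root mean square difference of log2 signals, each gene centred on its own mean, among 1517 genes above the floor on every array and ranging over at least 1 on the log2 scale. For Srebf1 these were Sc5d, a sterol desaturase (0.18), Rpf2, a ribosome assembly factor (0.31), Sdc4, a heparan sulfate proteoglycan (0.34), and Acss2, the cytosolic acetyl-CoA synthetase (0.34). For Mlxipl they were Tacr2 (0.033), Tmem209 (0.046), Tmem184b (0.077) and Fam120b (0.081). Signals ran from 163.1 to 389.2 for Tacr2, from 158.5 to 369.7 for Tmem209 and from 147 to 338.2 for Tmem184b. These lie nearer the floor of 138.9 than those of Mlxipl, at 1281.1 to 3047.2. The genes most like Thrsp were Aqp8, a water channel (0.24), Fasn (0.38), Srebf1 (0.40) and Sc5d (0.45). For Pnpla3 they were Acly (0.15), Elovl6 (0.20), Hapln2 (0.21) and Mid1ip1 (0.23), but these distances use the floor in place of the 1-week diet signal of 54.2. Taken without the floor, an alternative added after seeing the data, the genes most like Pnpla3 were Me1 (0.37), Pklr (0.37), Keg1 (0.43) and Gstm6 (0.45), and Acly ranked 13 (0.55). Among the 4 genes themselves the distance was 0.40 between Srebf1 and Thrsp and 0.84 between Mlxipl and Thrsp, and that of Mlxipl and Pnpla3 was 0.38 with the floor and 0.83 without it. A likeness over 5 arrays is a description of these pools.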

How the data were processed

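Biotin-labelled cRNA of pooled mouse livers was hybridised to 1 oligonucleotide array per group. The deposited values are linear intensities for each probe set on each array, computed as MAS5 signals per the submitters' processing notes. Detection calls were not used. Arrays were brought to 1 common 2% trimmed mean (500.2 on every array beforehand), the 64 control probe sets were left out, signals below the 40th percentile of all signals (138.9) were raised to it, and log2 was taken. Of 22690 probe sets, 20380 with 1 gene symbol were used. The probe set of highest mean log2 signal stands for a gene that has several, and genes at the floor on both arrays of a comparison were left out of it. A fold with 1 side at the floor is a bound. Each group has 1 array, so none of the comparisons could be tested. Ratios past 2-fold were counted over all genes and over the 4 genes, using Python 3.11.15, numpy 2.4.6, pandas 2.3.3 and, for cyclic loess, limma 3.58.1 in R 4.3.3. The counting was tested on simulated data.

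The 4 genes, the gene lists and the comparisons were chosen with earlier results of these data known. Named genes are, per list and main comparison, up to 4 past 2-fold by size, any member of the paralog, SREBP and Mlx lists, and the 4 genes most like each of the 4. Loci with clone names were passed over. Me1, Acly, Nr1h3, Thrb, Scd1, Car3, Keg1 and Gstm6, named to complete an account, lie outside this rule in part, picked with their values in view. The same holds for Nfya, Nfyb, Hnf4a, Klf9, Cpt1a, Fads2, Dgat2, Gpam and Pgd, named for their other probe sets. Alternatives were other normalizations, floors, a pseudocount of 100, other probe set and fold rules, and other chow references. Promoter sequences are from RefSeq (GRCm38.p6), matched by symbol for 4 of 4 genes.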

Additional observations from a re-analysis of the deposited data

Results flagged for a closer look

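The diet ratio differed in sign between 10 weeks and 1 week, past 2-fold at 1 time at least, for Thrsp and Pnpla3 and for 11 listed genes. The share of all genes that meet this rule was not counted, so the number cannot be set against a background. Some signs rest on small 1-week ratios, as for Thrsp (-0.21), Acly (-0.16), Fasn (-0.15), Acot1 (0.13) and Per1 (0.03). The difference of each pair of log2 ratios (10 weeks minus 1 week) is given, and these differences were not tested, since each ratio rests on 1 array per group. Thrsp gave 2.445 and Pnpla3 2.016, the latter with a bound at 1 week. Among lipogenic enzymes Acacb gave 2.651, Me1 2.157, Elovl6 1.943, Fasn 1.75 and Acly 1.586. Another Elovl6 probe set was higher at both times (log2 2.17 and 1.10). For Acly, 1 other probe set was higher at both times (0.63 and 0.36), and another changed sign (1.88 and -0.56). Beside these enzymes the ChREBP target Pklr gave 2.07. Another Pklr probe set was higher at both times (1.64 and 0.14), and a further one was below the floor on both 1-week arrays. Cidec, a lipid droplet gene, gave -1.361, since it was higher at 1 week. The corepressor Nr0b2 gave 1.627 and the GC box factor Sp1 -1.626. The thioesterase Acot1 gave -2.171 and the clock gene Per1, whose 10-week diet signal was below the floor, -1.68.

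Outside the gene probe sets, the 18S ribosomal RNA control of the atorvastatin array was 6.382 times that of the chow array with the higher signal.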

How the results depend on the processing

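No paired analysis was possible because each group has 1 array. The 278 recomputed ratios of the 4 genes kept their sign wherever they were called, and of 121 alternatives of ratios past 2-fold, 118 stayed past it. The exceptions were Pnpla3 under a floor at the 60th percentile (0.85 and -0.85), where 1 of the 4 genes passed 2-fold for atorvastatin against the diet. Under a floor at the 20th percentile, or under none (added after seeing the data), Pnpla3 was 1 gene past 2-fold at 1 week. A 1.5-fold rule took 4 genes for atorvastatin against the diet, 1 against chow and 2 between chow arrays, and a 3-fold rule 2 for the diet at 10 weeks and 0 between chow arrays. For atorvastatin against chow, 1-week chow as reference gave 2 genes and the mean of both chow arrays 1. Among listed genes that left 2-fold under at least 1 alternative, Thra reached 0.53 with atorvastatin, Cidec 0.59 and Me1 -0.57 at 1 week, and Gckr 0.99 at 10 weeks. Over all genes, counts past 2-fold for diet against chow at 10 weeks and 1 week, atorvastatin against diet and against chow, chow pair and diet pair were 614, 202, 397, 509, 399 and 768. A floor at the 20th percentile made them 1622, 830, 1313, 1470, 1298 and 1729, and one at the 60th 270, 77, 117, 197, 173 and 406. A 1.5-fold rule gave 2276, 1231, 1783, 2033, 1784 and 2738, and a 3-fold rule 90, 16, 59, 74, 47 and 124. The mean of all probe sets gave 385, 129, 305, 241 and 491 for these comparisons other than atorvastatin against the diet, and the mean of both chow arrays 398 for the diet at 10 weeks and 281 for atorvastatin against chow. The cause of shifts was not tested beyond the construction of each rule. Single arrays of pools set the limit, and signals near the floor, as of Pnpla3, are the least certain.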
